A study of Mus musculus with 4 samples.

Results

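The synaptonemal complex is the protein ladder that forms between paired homologous chromosomes in meiotic prophase, and 7 of its genes were followed through the days when germ cells of the XX gonad enter meiosis. The members were Sycp1, Sycp2, Sycp3, Syce1, Syce2, Syce3 and Tex12, all of which had a row among the 19321 gene symbols of the deposited table. The material was XX gonads of the mouse strain C57BL/6, taken daily over 4 embryonic days, E11.5 to E14.5, with no genotype or treatment beyond the strain given, profiled by droplet single-cell RNA sequencing with the 10x Chromium 3′ kit. Each stage was 1 library, the labels do not say how many embryos went into it, and 19387 cells were deposited in all. Germ cells were those with at least 3 of the markers Dazl, Ddx4, Dnd1, Mael, Dppa5a and Mov10l1 above 0. In stage order there were 256, 684, 801 and 2487 germ cells beside 4657, 4157, 4040 and 2300 other cells.

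In the complex, SYCP2 and SYCP3 build the lateral elements along each chromosome axis. SYCP1 forms the transverse filaments that bridge the axes. SYCE1, SYCE2, SYCE3 and TEX12 belong to the central element, where the filaments meet, and SYCE2 and TEX12 form a complex with each other. STRA8 is a transcription regulator that female germ cells switch on in response to retinoic acid as they enter meiosis, and its gene serves below as the reference for that entry.

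With 1 library per stage, no difference between stages could be tested, and stage and library cannot be told apart. Levels are UMIs (unique molecular identifiers, 1 per captured transcript) of a gene summed over a group of cells, in counts per 1e+06 UMIs of that group (CPM). They come from transcript 3′ ends and are not divided by length. Values in parentheses are exact 95% intervals, which cover counting error only. The libraries held between 69458291 and 80377418 UMIs. Germ cells had median depths of 31444, 27911, 25010 and 15701 UMIs in stage order, and other cells median depths between 10316 and 14010. The germ markers summed to between 2122 and 3267 CPM in germ cells and between 30.9 and 65.9 CPM in other cells, and all 6 had UMIs at each stage. Between 8.74% and 13.3% of the germ cells of a stage also had 3 or more of the 6 markers of a somatic or blood cell list. Between 19 and 36 barcodes were shared by each pair of libraries, 175 in all.

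The members lie on 7 chromosomes (GRCm38, GENCODE M21), and 3 of them overlap a protein-coding gene of the other strand. Sycp3 (chr10:88459569-88473236) lies inside Chpt1, and Tex12 (chr9:50556819-50561325) lies inside Il18. Syce2 (chr8:84872111-84888221) shares 1829 bases at its 3′ end with Gcdh. The use of strand in the counting is not given in the sources used here, and the part of such partners in the counts was not tested. In germ cells Chpt1 stood at 18.8 CPM at E14.5 and lower before, and Gcdh between 7.91 and 10.7 CPM. Il18 had no UMI at E11.5 and stood at 0.246 and 0.241 CPM on the following days, with its highest level at E14.5. In other cells Chpt1 stood at 21.6, 24.0, 26.5 and 20.5 CPM in stage order, and Sycp3 at 0.181, 0.346, 0.616 and 5.27. Gcdh stood there at 28.0, 21.2, 18.8 and 22.3 CPM, and Syce2 at 72.9, 64.1, 58.6 and 96.0. The other members are Sycp1 (chr3:102818499-102936100), Sycp2 (chr2:178345293-178407685), Syce1 (chr7:140777229-140787852) and Syce3 (chr15:89390174-89410503). Sycp1 and Syce1 overlap only pseudogenes of the other strand, none of which has a row in the deposited table.

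Upstream sequence is shown for the 4 members that differed most between E13.5 and E14.5, the transverse filament gene Sycp1, both lateral element genes and Tex12, so that their shared and unshared letters can be read beside their levels. The sequences come from RefSeq (GRCm38.p6) and end before the most upstream annotated start of each gene. Capitals mark matches to the E-box CACGTG or to the E2F-type motif GCGGGAA on either strand, of which Sycp2 has none. Sycp1 is shown from chr3:102936101-102936350 and Sycp2 from chr2:178407686-178407908, both on the minus strand. Sycp3 is shown from chr10:88459337-88459568 on the plus strand and Tex12 from chr9:50561326-50561518 on the minus strand.
Sycp1: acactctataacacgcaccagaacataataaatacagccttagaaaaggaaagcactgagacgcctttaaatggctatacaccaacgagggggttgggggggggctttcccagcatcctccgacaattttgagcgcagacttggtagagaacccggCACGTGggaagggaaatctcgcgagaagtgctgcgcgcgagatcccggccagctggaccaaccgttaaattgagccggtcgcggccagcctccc
Sycp2: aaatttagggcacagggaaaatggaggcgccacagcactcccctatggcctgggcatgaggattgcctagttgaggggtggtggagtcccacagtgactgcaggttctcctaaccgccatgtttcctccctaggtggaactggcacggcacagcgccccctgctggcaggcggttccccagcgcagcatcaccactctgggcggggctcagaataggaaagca
Sycp3: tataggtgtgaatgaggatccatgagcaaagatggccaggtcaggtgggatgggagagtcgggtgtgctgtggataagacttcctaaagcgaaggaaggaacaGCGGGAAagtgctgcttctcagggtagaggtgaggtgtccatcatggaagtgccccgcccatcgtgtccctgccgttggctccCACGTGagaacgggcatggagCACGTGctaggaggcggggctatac
Tex12: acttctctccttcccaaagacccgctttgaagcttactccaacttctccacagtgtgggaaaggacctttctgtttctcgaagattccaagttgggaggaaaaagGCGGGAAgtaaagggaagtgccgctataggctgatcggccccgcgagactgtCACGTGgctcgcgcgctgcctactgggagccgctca

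Motifs were searched in the 250 bases before each start, in 9 windows for the 7 members, since Syce2 and Syce3 have 2 starts each. The E-box was found upstream of 4 members, with its first base 94 bases before the start of Sycp1, 93 before that of Tex12, 64 and 43 before that of Sycp3, and 88 before the downstream start of Syce2. It occurs in 6.02% of the 32851 windows of this length in the table. The E2F-type motif was found upstream of 3 members, Sycp3, Tex12 and Syce2, and occurs in 3.82% of all windows. A motif of the type bound by STRA8 with its partner MEIOSIN, CNCCTCAG on either strand, was found only at the downstream start of Syce2 among these windows, where it overlaps the E2F-type match, and occurs in 6.42% of all windows. No match to the 3 motifs was found in these windows of Sycp2, Syce1 or Syce3. A match is a description of the letters and was not tested against the levels.

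The transverse filament gene Sycp1 stood in germ cells, in stage order, at 4.79 CPM (3.42 to 6.52), 17.4 (15.6 to 19.3), 60.4 (57.1 to 63.8) and 427 (421 to 433). The intervals of neighbouring stages did not overlap at any step, and the log2 difference between E14.5 and E11.5 was 6.48 (6.03 to 6.96), the highest of the members by its value, with an interval that overlapped those of Sycp2 (4.35 to 7.20) and Tex12 (4.91 to 6.19). The steps were even at first, with log2 differences of 1.86 and 1.79, and the last was 2.82 (2.74 to 2.91). In other cells Sycp1 stood at 0.0834, 0.121, 0.432 and 4.83 CPM.

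Of the lateral element genes, Sycp3 was already present at E11.5 and Sycp2 was close to the floor until E13.5. Sycp3 stood at 16.5 CPM (13.9 to 19.5), 26.0 (23.9 to 28.3), 41.9 (39.1 to 44.7) and 324 (319 to 330), a log2 difference of 4.30 (4.05 to 4.55) between the outer stages. Most of it fell on the last step, at 2.95 (2.85 to 3.05), against 0.66 and 0.69 on the steps before. Sycp2 had 5, 11, 35 and 1214 UMIs in stage order, that is 0.599, 0.541, 1.68 and 28.6 CPM. Its E11.5 and E12.5 intervals overlapped (0.194 to 1.40 and 0.270 to 0.968). The last step, 4.08 (3.60 to 4.61), was the widest of the members by its value on the log2 scale, and overlapped that of Tex12, at 3.44 (3.25 to 3.64).

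Tex12 was the central element gene with the widest difference. It stood at 2.63 CPM (1.65 to 3.99), 5.41 (4.45 to 6.52), 11.1 (9.69 to 12.6) and 120 (117 to 124), a log2 difference of 5.51 (4.91 to 6.19). Syce3 stood at 9.82 CPM (7.81 to 12.2), 15.8 (14.1 to 17.6), 33.6 (31.2 to 36.2) and 130 (126 to 133), a log2 difference of 3.72 (3.41 to 4.06). Syce1 stood at 19.2 CPM (16.3 to 22.4), 27.1 (24.9 to 29.5), 41.0 (38.3 to 43.9) and 149 (145 to 153), a log2 difference of 2.96 (2.73 to 3.20). All 3 were lowest at E11.5 and highest at E14.5, with no overlap of neighbouring intervals.

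Syce2 differed from the other 6. It stood at 318 CPM (306 to 331) in germ cells already at E11.5, then at 337 (329 to 345), 309 (301 to 316) and 500 (493 to 507). The level was lower at E13.5 than at E12.5, and the log2 difference between the outer stages was 0.65 (0.59 to 0.71). Scaling by the median of ratios over genes, which shifts every log2 difference between these stages by -0.37, left 0.28 (0.22 to 0.34). Syce2 gave 85.6% of the UMIs of all 7 members at E11.5 and 29.8% at E14.5. At E11.5 Syce2 was at 63.6% of its E14.5 level, and Tex12, its partner in the central element, at 2.19%.

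Stra8 had 0 UMIs in germ cells at E11.5, where 3 UMIs would be 0.359 CPM. On the following days it stood at 1.87, 128 and 899 CPM. At E11.5, with no Stra8 UMI counted, the 6 members other than Syce2 together stood at 53.5 CPM (48.7 to 58.7). On the following days they stood at 92.3 CPM (88.2 to 96.6), 190 (184 to 196) and 1179 (1169 to 1190). Stra8 had its wider step from E12.5 to E13.5, with a log2 difference of 6.09 (5.63 to 6.60), and the 6 members from E13.5 to E14.5, with 2.64 (2.59 to 2.68) against 1.04 (0.96 to 1.12).

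**Figure D1:**
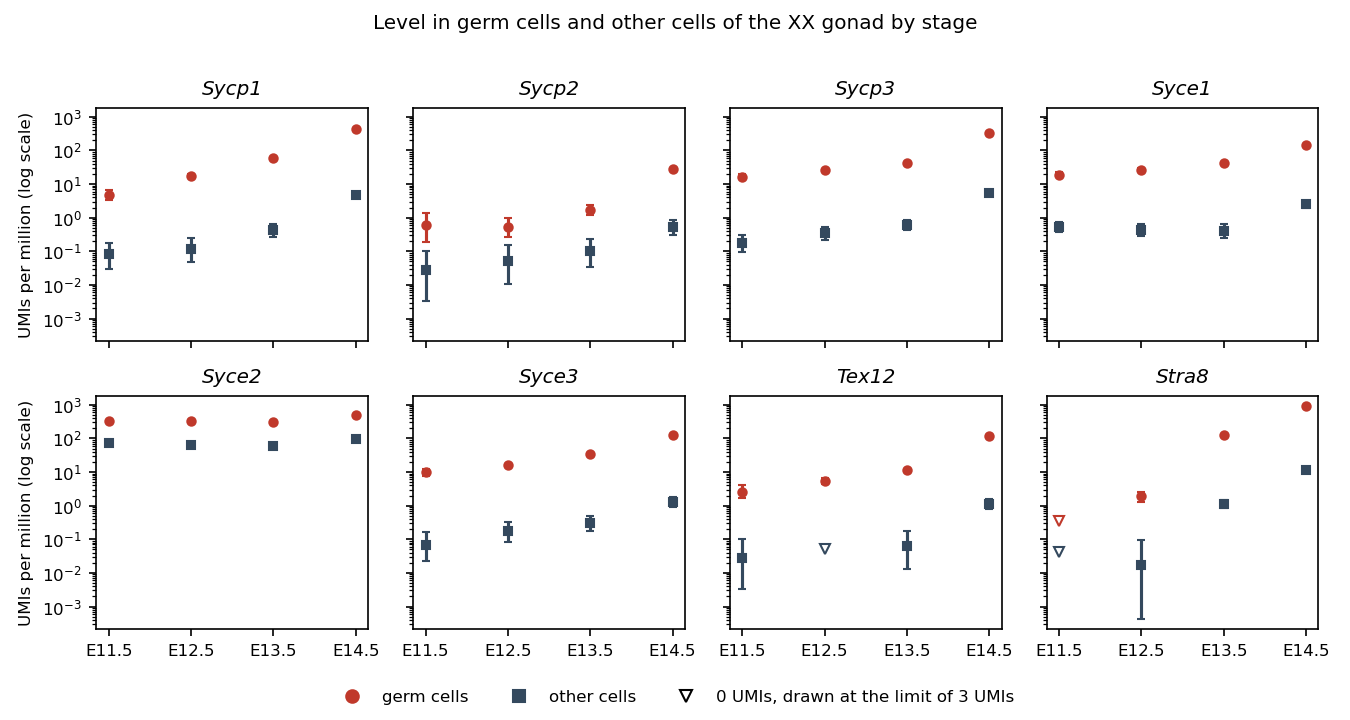
Level of each member and of Stra8 by stage in germ cells (circles) and other cells (squares) in CPM, on a log axis, with exact 95% Poisson intervals. Syce2 is near 300 to 500 in germ cells at every stage and is the only member above 50 in other cells, and the rest are highest at E14.5.

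A rule of size was applied to all genes, which called a gene higher with at least 50 UMIs in both groups together, at least 20 CPM in the higher group, a ratio that reaches 4 and separate intervals. Between E13.5 and E14.5 it called 4 of the 7 members higher in germ cells (Sycp1, Sycp2, Sycp3 and Tex12), against 1.20% of the 5647 genes that met the minimums. Of these, Sycp2 and Tex12, at 1.68 and 11.1 CPM at E13.5, met the minimum of 20 CPM only through E14.5, so nothing is read from the count. Syce1 and Syce3 missed the ratio of 4 with log2 differences of 1.86 and 1.95, just under the limit. Between E11.5 and E12.5, 0 of the 3 members that met the minimums were called (0.0612% of all genes), and between E12.5 and E13.5, 0 of 5 (0.0778%). Over the whole span 6 of 7 were called, all but Syce2, against 6.16% of genes, and the median log2 difference of the members was 4.30 against 0.28 over all genes that met the minimums. The 6 members called over the whole span met the minimum of 20 CPM only through E14.5, so nothing is read from that count either. No member was called lower in any of these comparisons.

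Germ cells and other cells were compared within each library. At E14.5 all 7 members were called higher in germ cells, against 4.92% of genes, but the 6 other than Syce2 met the minimum of 20 CPM only through germ cells, so nothing is read from the count. The same holds for the members other than Syce2 at E11.5, E12.5 and E13.5, where 1, 3 and 5 members met the minimums and were called, Syce2 among them each time (3.88%, 4.12% and 4.92% of genes). In other cells of E14.5 Sycp1 stood at 4.83 CPM, Sycp3 at 5.27 and Tex12 at 1.13, which is 1.13%, 1.62% and 0.941% of their germ cell levels. Stra8 there stood at 1.28% of its germ cell level. Syce1, Syce3 and Sycp2 were at 1.68%, 1.00% and 1.87%. The E14.5 cells with 0 germ markers were close to this, with 4.32 CPM of Sycp1 and 5.06 CPM of Sycp3. Free RNA of germ cells in the droplets gives counts of this kind, and its part in them was not tested.

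Syce2 stood apart in the other cells too, at 72.9, 64.1, 58.6 and 96.0 CPM over the 4 stages, or 22.9% of its germ cell level at E11.5 and 19.2% at E14.5. At E14.5 the 6 other members stood at 0.941% to 1.87% of theirs. Cells with 0 germ markers held 70.0, 61.4, 58.4 and 89.8 CPM. Other cells were placed by their markers into 6 groups, which left between 437 (E14.5) and 1417 (E11.5) cells of a stage unplaced, and Syce2 differed between the groups beyond counting error. The unplaced cells held 98.3, 91.5, 70.8 and 107 CPM of Syce2, with 169, 106, 41.5 and 41.9 CPM of the summed germ markers, whose part in the Syce2 level was not tested. Pre-granulosa cells, the supporting lineage of the ovary, held 46.8, 44.8, 36.5 and 45.7 CPM. Interstitial cells held 90.0, 91.0, 84.8 and 98.4 CPM, and surface epithelial cells 125, 98.8, 95.1 and 100 CPM. At each stage the pre-granulosa interval lay below the intervals of both. The 92 erythroid cells of E11.5 held 33.5 CPM (26.9 to 41.2) and the 248 of E14.5 held 157 (147 to 167), and endothelial cells between 23.3 and 47.3 CPM. Immune cells, between 15 and 41 per stage, held 85.9, 132, 70.5 and 108 CPM. At E14.5 the summed germ markers ran against the Syce2 levels in 2 groups, at 47.1 CPM in pre-granulosa cells and 24.0 CPM in erythroid cells. At E11.5 erythroid cells were below pre-granulosa cells in both Syce2 and these markers (marker intervals 10.3 to 19.8 and 21.4 to 24.8 CPM). The markers of E11.5 stood at 27.1 CPM in interstitial, 23.1 in pre-granulosa and 20.9 in surface epithelial cells, with overlapping intervals. The parts of germ cell RNA and of Gcdh reads in the Syce2 levels of these groups were not tested.

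**Figure D2:**
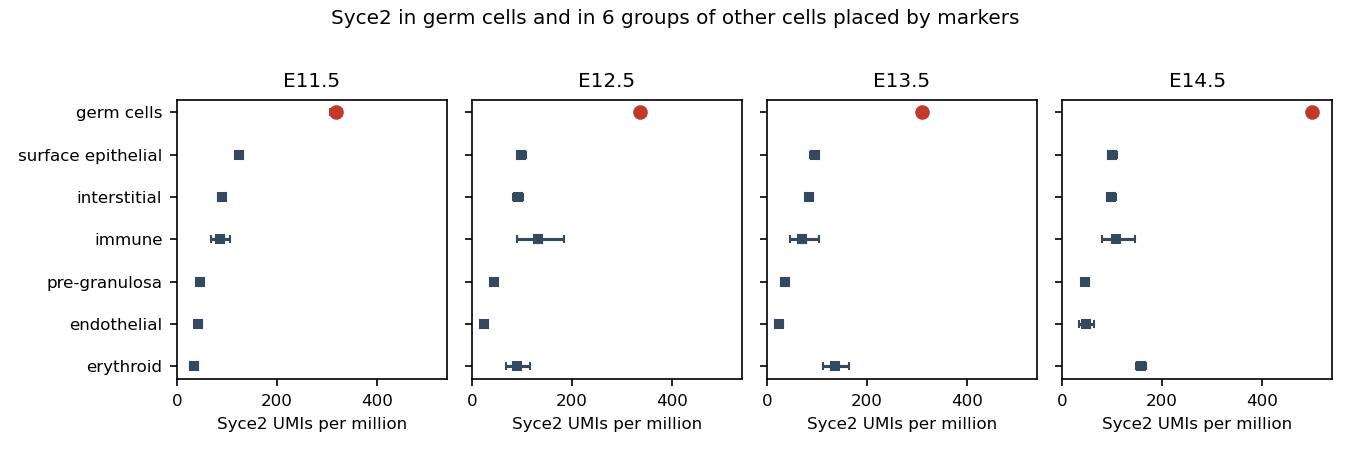
Syce2 in CPM in germ cells (circle) and in 6 groups of other cells placed by markers (squares) at each stage, with exact 95% Poisson intervals. Germ cells are highest at every stage, and pre-granulosa and endothelial cells lie below surface epithelial and interstitial cells.

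To compare single cells at equal depth, every cell was thinned at random to 5000 UMIs. The share of germ cells with a UMI at E14.5 was then 88.9% for Syce2, 77.8% for Sycp1, 64.3% for Sycp3, 50.3% for Syce1, 42.1% for Syce3, 40.3% for Tex12 and 13.7% (12.4 to 15.1) for Sycp2. Before thinning these shares were 99.3%, 93.9%, 86.5%, 83.8%, 73.3%, 67.9% and 30.6%. The intervals of Syce3 (40.1 to 44.0) and Tex12 (38.4 to 42.3) overlapped, and those of the other neighbours did not. In other cells of that stage, whose median depth was 10316 UMIs against 15701, the shares were 31.8% for Syce2 and between 0.217% and 3.17% for the rest. At E11.5 Syce2 was found in 77.3% (71.7 to 82.3) of thinned germ cells and the other 6 in 0.391% to 7.81%.

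The average thinned germ cell held UMIs of 1.00, 1.22, 1.62 and 3.77 members in stage order. At least 4 members were found in 1 of 256, 3 of 684 and 30 of 801 cells of the earlier stages, the last being 3.75% (2.54 to 5.30). At E14.5 the number was 1363 of 2487, or 54.8% (52.8 to 56.8), against 1 of 2300 other cells. All 7 were found in 123 germ cells of E14.5, or 4.95% (4.13 to 5.87), and in 0 of the 801 germ cells of E13.5. For that count of 0 the exact upper limit was 0.459%, and 3 cells would be 0.375%. E14.5 germ cells were spread widely, with 1.61% holding no member and 7.96% holding 1.

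**Figure D3:**
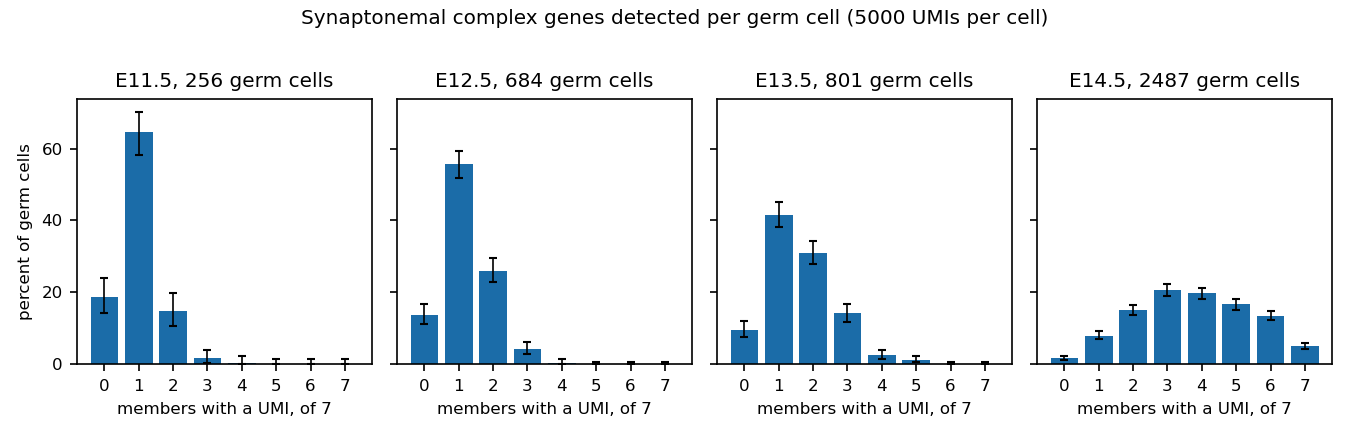
Percent of germ cells (vertical axis) by the number of the 7 members with a UMI (horizontal axis) at each stage, in cells thinned to 5000 UMIs, with exact 95% binomial intervals. Cells with 1 member are the largest class until E13.5, and at E14.5 the cells are spread from 0 to 7 members with the largest class at 3.

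Members were found together in the same E14.5 cells. Sycp3 had a UMI in 89.7% (86.0 to 92.7) of the 341 cells with Sycp2 and in 60.3% (58.1 to 62.3) of those without. In the other direction Sycp2 was found in 3.94% (2.76 to 5.44) of cells without Sycp3 and 4.86 times as often in cells with it (interval of the share 17.2 to 21.2), the widest ratio among the ordered pairs. Tex12 was found in 46.5% of cells with Sycp1 and 18.6% of those without, and in 51.3% of cells with Sycp3 and 20.5% of those without. The ratios were lowest where Syce2 was the member looked for, at 1.06 to 1.10, with Syce2 in 93.4% of cells with Tex12 and 85.9% of those without. Syce2 was found in 82.6% to 88.0% of cells without the other member, so its ratios had little room to be higher. Sycp2, found in 13.7% of all cells, had the most room. In the other direction Sycp2 was found in 14.6% of cells with Syce2 and 6.18% of those without. These shares describe cells of 1 library, at equal depth.

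The relation to Stra8 was described by grouping germ cells by the Stra8 UMIs of the thinned cell. At E14.5, 308 cells had 0 Stra8 UMIs, 499 had 1 to 2, 717 had 3 to 5, 628 had 6 to 9 and 335 had 10 or more. Each of the 7 members was higher in every next group, and the intervals of the outer groups were far apart. Sycp1 stood at 151, 277, 467, 588 and 676 CPM over the 5 groups, and Sycp3 at 87.5, 188, 351, 466 and 565. Tex12 stood at 33.2, 62.8, 122, 176 and 239 CPM, and Sycp2 went from 7.40 (5.44 to 9.84) to 52.0 (45.7 to 58.9). Syce1 went from 67.4 to 244 CPM, Syce3 from 53.8 to 198 and Syce2 from 394 to 648.

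Between the outer Stra8 groups, Tex12 was 7.20-fold higher, Sycp2 7.03-fold, Sycp3 6.46-fold and Sycp1 4.47-fold. Syce3 was 3.68-fold, Syce1 3.62-fold and Syce2 1.65-fold higher. The log2 intervals of Tex12 (2.64 to 3.07), Sycp2 (2.36 to 3.30) and Sycp3 (2.56 to 2.82) overlapped each other and lay above that of Sycp1 (2.05 to 2.26). Over all 7 members the log2 difference was 1.72 (1.68 to 1.77), and 2.30 (2.24 to 2.36) without Syce2. The pluripotency gene Pou5f1 went the other way, from 282 CPM (269 to 296) without Stra8 UMIs to 116 (109 to 123) with 6 to 9. It stood at 98.0 CPM (89.3 to 107) with 10 or more. The median depth of the cells was 19345 UMIs in the group without Stra8 and 13610 in the group with 10 or more. Over single E14.5 cells Spearman's rho with Stra8 was 0.45 for Sycp1 and Sycp3, 0.35 for Tex12 and between 0.20 and 0.29 for the rest, over 2487 cells of 1 library.

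Cells of E13.5 with the same Stra8 UMIs held less of the members. In that library 551 cells had 0 Stra8 UMIs, 175 had 1 to 2, 60 had 3 to 5, 14 had 6 to 9 and 1 had 10 or more. The 6 members other than Syce2 stood at 138 CPM (132 to 144) in E13.5 cells with 0 Stra8 UMIs and at 401 (385 to 417) in such cells of E14.5. With 1 to 2 UMIs the levels were 272 and 739 CPM, with 3 to 5 they were 410 and 1259, and with 6 to 9 they were 811 and 1647. With 3 to 5 Stra8 UMIs the folds ran from 1.57 for Syce2 to 4.61 for Sycp2 and 5.73 for Tex12, and the log2 interval of Sycp2 (1.21 to 3.43) overlapped those of Tex12 (1.97 to 3.12) and Sycp3 (1.67 to 2.21). Syce3 in the group of 6 to 9 did not differ beyond counting error, at 139 CPM (96.4 to 195) and 175 (167 to 184). Stra8 itself was also higher at E14.5 within these 4 groups. With 0 Stra8 UMIs in the thinned cell it differed 3.26-fold, at 31.8 and 104 CPM, and the 6 members 2.91-fold, with log2 intervals that overlapped (1.54 to 1.88 and 1.46 to 1.62). In the next 3 groups Stra8 differed 1.57-fold, 1.43-fold and 1.26-fold and the 6 members 2.72-fold, 3.07-fold and 2.03-fold. Pou5f1 was higher too, at 116 and 157 CPM with 3 to 5 UMIs. The median depths there were 21735 and 15607 UMIs, and the part of these in the difference was not tested.

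**Figure D4:**
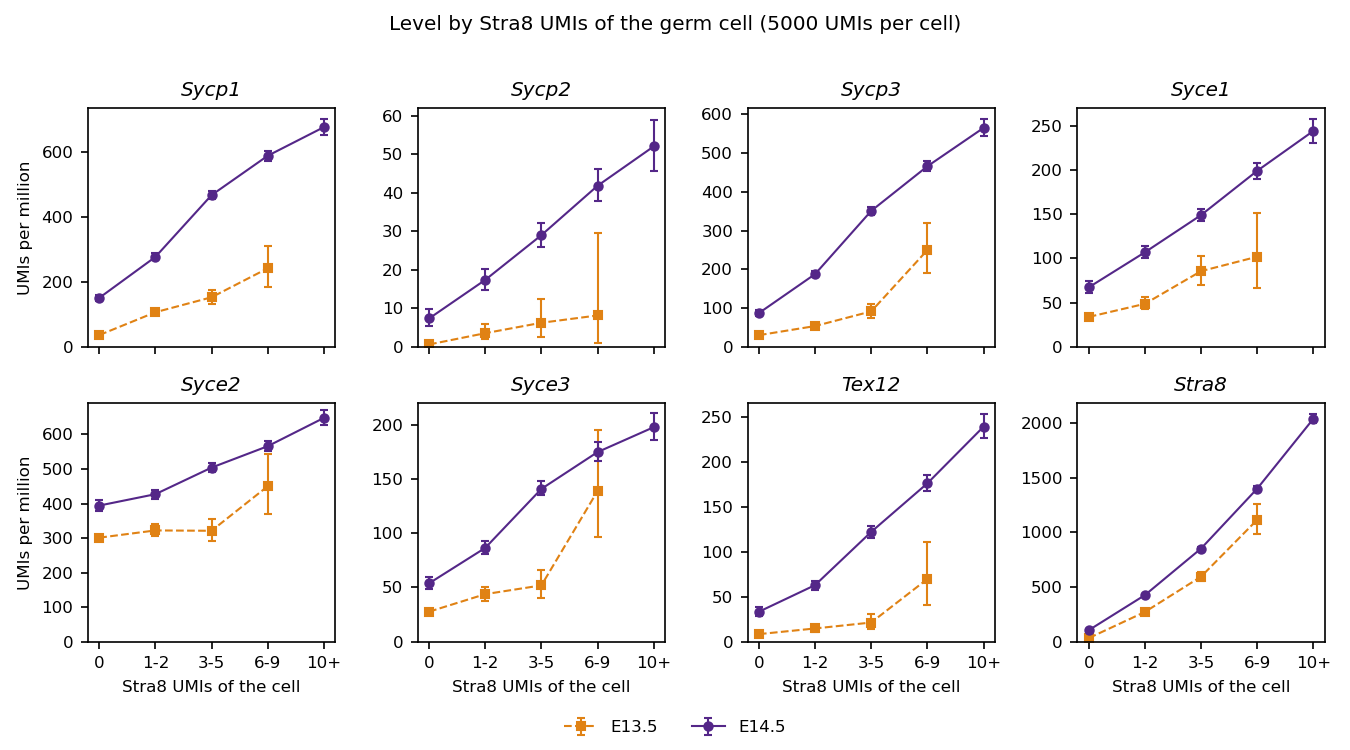
Level of each member and of Stra8 in CPM, on axes from 0 of their own, by the Stra8 UMIs of the thinned germ cell at E13.5 (squares) and E14.5 (circles), with exact 95% Poisson intervals; the single E13.5 cell with 10 or more is left out. Every member is highest in the E14.5 cells with 10 or more Stra8 UMIs, and the E13.5 points lie below the E14.5 points of the same group.

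The order of the members was described along a score of 15 other meiosis genes (Smc1b, Rec8, Stag3, Hormad1, Hormad2, Dmc1, Meioc, Mei1, Tex15, Tex11, Meiob, Prdm9, Spo11, Msh5 and Rad51ap2), as the sum of their UMIs in a thinned cell. The score is a range and not a cell type. The sum is not weighted, so genes with more UMIs count for more. Smc1b stood at 1183 CPM in E14.5 germ cells, against 177 for Tex15, 146 for Rec8 and 120 for Stag3. How far the order rests on Smc1b alone was not tested. At E14.5, 114 cells scored 0 to 1 and 80 scored 30 or more. All 7 members were highest in the top group, where Sycp3 stood at 1342 CPM, Syce2 at 1023, Sycp1 at 1002, Syce3 at 515, Tex12 at 409, Syce1 at 380 and Sycp2 at 155. Stra8 was highest one group earlier, at 1522 CPM (1485 to 1559) with a score of 20 to 29, and stood at 1258 (1191 to 1328) in the top group. Pou5f1 stood at 247 CPM in the lowest group and 19.9 in the top group.

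In the group scoring 10 to 14, the levels as a percent of the highest group separated the members. Stra8 stood at 80.2% (77.7 to 82.8). Sycp1 at 52.6% (49.1 to 56.3), Syce2 at 49.4% (46.1 to 52.8) and Syce1 at 44.9% (40.2 to 50.3) came next, and neighbours among these 3 did not differ beyond counting error. Tex12 followed at 31.2% (27.8 to 35.0), Syce3 at 25.4% (22.9 to 28.2) and Sycp3 at 24.9% (23.3 to 26.5), again overlapping in that order. Sycp2 was the lowest at 16.7% (13.6 to 20.6). The level reached 50% of the highest in the group of 10 to 14 for Sycp1, in that of 15 to 19 for Syce1, Syce2 and Tex12, and in that of 20 to 29 for Sycp2, Sycp3 and Syce3. In the mean over all score groups with no thinning, Syce1 came before Sycp1, and Tex12 behind Syce3 and Sycp3. Stra8 reached 50% at 10 to 14, and its level with a score of 5 to 9 was 48.6% (47.1 to 50.1). The members were still rising into the top group, as Sycp3 from 925 to 1342 CPM, so these percents depend on where the score ends. By stage the order differed. At E11.5 Sycp1 stood at 1.12% of its E14.5 level in germ cells. The other members stood at 2.10% (Sycp2), 2.19% (Tex12), 5.09% (Sycp3), 7.57% (Syce3), 12.8% (Syce1) and 63.6% (Syce2).

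The place of Syce2 in this order came with a high start. It stood at 332 CPM in the lowest group, 32.5% of its highest, and was 3.08-fold higher in the top group. The fold between these groups was 44.4 for Sycp2, 27.5 for Sycp3, 22.4 for Tex12, 20.4 for Syce3, 10.3 for Sycp1 and 7.88 for Syce1. In the lowest group Sycp2 stood at 2.25% (0.955 to 4.54) of its top level, Sycp3 at 3.63% (2.97 to 4.40), Tex12 at 4.47% (3.17 to 6.14) and Syce3 at 4.90% (3.67 to 6.43), all overlapping. Sycp1 stood above these 4 at 9.68% (8.34 to 11.2).

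**Figure D5:**
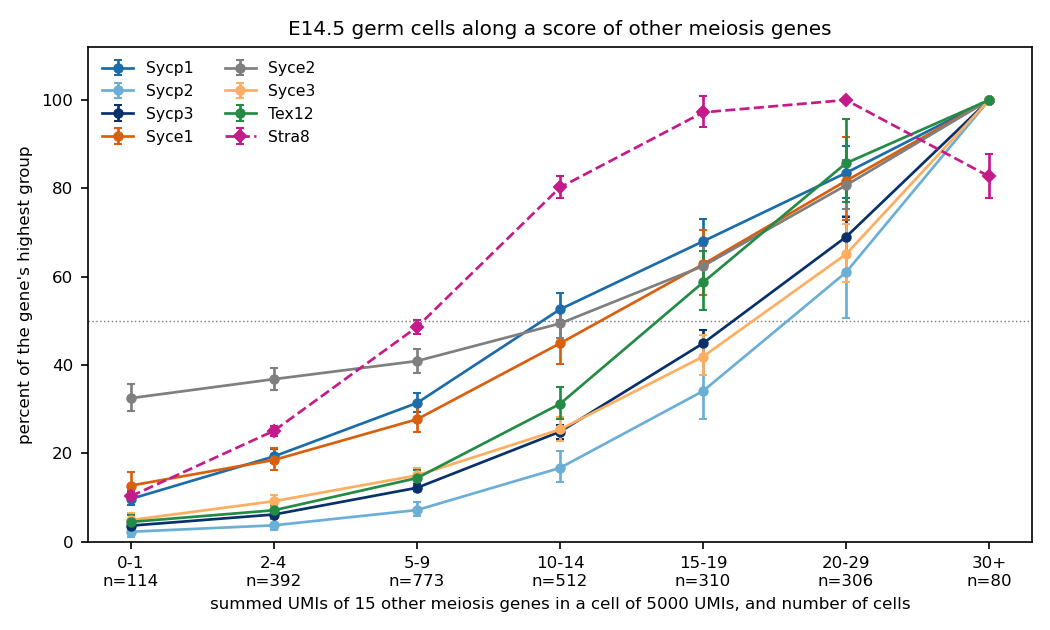
Level of each member and of Stra8 in E14.5 germ cells as a percent of its highest group (vertical axis) along groups of the score of 15 other meiosis genes (horizontal axis), with intervals for counting error and a dotted line at 50%. Stra8 is ahead of all members from a score of 5 to 9 and lower again at 30 or more, Sycp1 is the highest member at 10 to 14, with Syce2 within counting error of it, and Sycp2 is last there.

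At E14.5 the levels of the members differed with the number of germ markers of the cell. Cells with all 6 germ markers had lower levels than those with 5, at 177 against 439 CPM for Sycp3, 13.1 against 39.8 for Sycp2 and 67.8 against 164 for Tex12. At E13.5 the same contrast was 45.5 against 43.4 CPM for Sycp3. Dnd1, a germ cell RNA-binding protein gene of the rule, had a UMI in 90.8% of germ cells at E13.5 and 57.3% at E14.5, and its part in this contrast was not tested. The 58 E14.5 cells just inside the limit, with 3 markers, held 229 CPM of Sycp1 and 255 CPM of Sycp3. The 172 cells just outside, with 2 markers, held 9.68 and 6.45 CPM. At E11.5 the limit was less sharp. There the 127 cells with 2 markers held 171 CPM of Syce2 and 7.08 of Syce1, against 70.0 and 0.297 with 0 markers. The 82 cells with 3 markers, of 256 germ cells, held 284 and 13.3 CPM.

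Among 50 other meiotic chromosome genes, all in the table, 31 met the minimums between E11.5 and E14.5 in germ cells. Of the 50, 17 were called higher and 0 lower, against 6.16% of all genes that met the minimums called higher. A gene can meet the minimums through its E14.5 level alone, so nothing is read from this count. The list was chosen with earlier results of these data known. Among the genes with at least 50 UMIs over both stages, 6 had 0 UMIs at E11.5 and so no log2 difference, and of these Stra8 was at least 2503-fold higher at E14.5, taken against 3 UMIs at E11.5. Among those with UMIs at both stages, the highest differences were those of Meioc, a gene needed for an extended meiotic prophase, at 9.69 (7.21 to 14.99) from 1 UMI at E11.5, the double-strand break factor Ankrd31 at 7.19 (at least 4.71 by its interval) from 1 UMI and with 17.5 CPM at E14.5, under the minimum of the rule, and the recombination hotspot gene Prdm9 at 6.53 (4.98 to 8.81) from 3 UMIs. The lowest were those of the mitotic cohesin genes Rad21, at -0.65 (-0.76 to -0.54), and Smc1a, at -0.07 (-0.17 to 0.03), and of the recombinase partner Psmc3ip, at -0.18 (-0.33 to -0.02). Six6os1, the remaining central element gene of the list, stood at 32.3, 46.3, 68.6 and 236 CPM, a log2 difference of 2.87 (2.69 to 3.05), whose interval overlapped that of Syce1.

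The genes most like the sum of the 7 members were found by Pearson's r of log2(CPM + 10) over 13 groups of germ cells, by stage and score, with at least 50 cells each. They were Tfcp2, M1ap, Macrod2, Rbmx2, Pigp, Xlr4c, Pde6d, H2-K1, Ppp1r12b and Taf7l, with r between 0.995 and 0.997. Syce2 weighs most in this sum at low scores, and with the sum of the 6 other members the same genes had r between 0.963 and 0.991. The groups share libraries, and 1875 of the 10863 genes compared had r of 0.9 or more. M1ap, a gene needed for male meiosis, had germ cell levels of 19.4, 23.7, 32.0 and 154 CPM, and Taf7l, a germ cell paralogue of a general transcription factor subunit, levels of 0.838, 1.28, 7.94 and 156 CPM. H2-K1, a class I histocompatibility gene, stood at 2.15, 1.67, 3.90 and 81.6 CPM. Most of the 10 were less restricted to germ cells than the members other than Syce2. At E14.5 Pigp, of glycolipid anchor synthesis, stood at 266 CPM in germ cells and 81.9 in other cells. Tfcp2 stood at 22.9 and 11.4 CPM, Pde6d at 158 and 55.4, and M1ap at 154 and 12.1. Only Xlr4c, at 65.6 and 1.13 CPM, was as restricted as those members.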

How the data were processed

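Gonad cells of 4 stages, 1 library each, were analysed from a table of natural log values that the authors deposited as ln(1 + 10000 × the gene's part of the cell's UMIs), a form read from the values themselves. Reads were processed with Cell Ranger 2.2.0 on mm10, per the submitters' processing notes. All 69792436 values above 0 were whole multiples of 1 UMI at a relative tolerance of 1e-06, so UMI counts were recovered and used. The plan had assumed counts. The deposited cells held at least 5407 UMIs each. Cells above 20% mitochondrial UMIs (5 of 19387) were left out, and no doublet caller was run. UMIs were summed over germ cells and other cells of a library, with exact Poisson, binomial and Clopper-Pearson intervals, in Python 3 with numpy and scipy. Cells were thinned with seed 1. Somatic groups were rule-based, not clusters: the list of 6 markers with most above 0, at least 3. The rule of size was tested on simulated counts with counting error only. These held no variation between cells or libraries, so the test does not bear on calls between libraries. Gene coordinates came from GENCODE M21. The members, lists and rules were chosen with earlier results of these data known. Named were all members, Stra8, the germ markers, the 10 genes most like the members and, of the meiotic list, the 3 highest and 3 lowest log2 differences among genes with at least 50 UMIs and UMIs at both stages, and Six6os1, which was chosen after its values were seen. Alternatives covered the germ cell rule, depth, scaling, background subtraction and thinning.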

Additional observations from a re-analysis of the deposited data

How the results depend on the processing

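No paired analysis was possible because each stage had 1 library. Of 113 values under the alternatives, 56 were log2 differences, none of which changed sign, and 72 stayed within the interval of the reported value or, for counts, within 1.5 times of it. The counts of members called higher, 6 of 7 for E14.5 against E11.5 and 7 of 7 for germ cells against other cells at E14.5, were the same numbers under every alternative run for them. In the reported counts the called members other than Syce2 met the minimum of 20 CPM only through the higher group, so nothing is read from these numbers. The log2 difference of the 7 summed members, 2.18, was 2.27 with at least 2 germ markers, 2.10 with at least 4, 1.81 with median-of-ratios scaling, 2.40 with the level of other cells subtracted and 2.35 as a mean over cells. Without Syce2, an alternative chosen after seeing the data, it was 4.46. The log2 difference between the outer Stra8 groups, 1.72, was 2.13 with at least 2 germ markers, 1.65 with at least 4, 1.63 without mixed cells, 1.46 after thinning to 2000 UMIs (5 cells in the top group), 1.80 with no thinning and 2.30 without Syce2, the last chosen after seeing the data. The share of E14.5 germ cells with 4 or more members, 54.8%, was 51.3% with at least 2 germ markers, 23.8% after thinning to 2000 UMIs and 89.3% with no thinning, as fewer or more UMIs per cell are counted. Of the 21 pairs of members, ordered by their mean percent of the highest score group, 18 to 21 kept their order. Sycp3 and Syce3 changed places under 2 of the 5 alternatives, at least 2 and at least 4 germ markers. With no thinning Syce1 came before Sycp1 (42.8% and 40.7%), and Tex12 (30.3%) fell behind Syce3 (36.6%) and Sycp3 (30.8%). Depth limits Sycp2 before E14.5, with 5, 11 and 35 UMIs.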
